A study of Homo sapiens with 18 samples.

Results

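The transcriptome of PATU-8902 cells after 24 h of the inhibitor DCLK1-IN-1 was set against that after 6 h. PATU-8902 is an established line of human pancreatic ductal adenocarcinoma, and DCLK1-IN-1 is a small molecule that inhibits the doublecortin-like kinase DCLK1. The comparison took 6 of the series' 18 libraries, 3 at 24 h and 3 at 6 h of 2.5 µM inhibitor, chosen by line, compound and time from the sample labels. The series has 6 groups of 3 libraries: PATU-8902 with inhibitor for 24 h, with inhibitor for 6 h and with the vehicle DMSO for 24 h, and PATU-8988T, a second line of the same cancer, under the same 3 conditions. No genotype change is labelled in either line. Replicates are described as biological triplicates, and nothing says whether the cultures of a number were handled together, so the p-values measure the spread between these samples. Vehicle was given for 24 h only. With no vehicle at 6 h, an effect of longer exposure to the inhibitor and an effect of longer time in culture cannot be told apart. Differences of the 6 h group from DMSO likewise set 6 h of inhibitor against 24 h of vehicle, and are not changes over the first 6 h.

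Cholesterol is made from acetyl-CoA through the mevalonate pathway, which builds squalene, and through a second set of enzymes that close and trim the sterol rings. Genes of both sets carry sterol regulatory elements read by SREBP-2, the product of SREBF2, while the related SREBP-1 is best known for fatty acid genes. SREBPs are held in the endoplasmic reticulum by INSIG proteins when sterol is plentiful and are released to the nucleus when it is scarce. Both factors commonly act with NF-Y, which binds CCAAT, and with Sp1, which binds GGGCGG. In pancreatic ductal adenocarcinoma, as in other tumours, cells take cholesterol both from synthesis and from lipoprotein uptake.

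Expression was deposited as FPKM, in general fragments scaled by transcript length and library size. The values were levelled between libraries by the authors and come without counts, so the depth is unknown. In the 6 libraries they were nearly level on the ERCC spike-in controls, with mean log2 deviations of -0.0458 to 0.00177. Their summed FPKM was not level, at 440448 to 764363. The 6 libraries had median levels between 10.7 and 17.4 FPKM over the 11477 genes tested, with 10902 to 11423 genes at 1 FPKM or more. Within the 24 h group Pearson's r between libraries was 0.972 to 0.981, and within the 6 h group it was 0.973 to 0.975, across genes. The highest libraries were 24 h replicate 3 and 6 h replicate 2. The mean log2 library median differed by 0.11 (24 h minus 6 h; exact permutation p = 0.5, two-sided; the smallest possible p was 0.1). Each library was shifted to a common median on the log2(FPKM + 1) scale, and "levelled FPKM" below is the value after that shift. The shift was set with the comparison and does not rest on the permutation test, in which no p below 0.1 was possible. It replaces the level on the spike-ins. Of 13 markers of pancreatic ductal adenocarcinoma epithelium, 11 were at 1 FPKM or more in all 6 libraries, among them EPCAM, KRT7 and KRT19, while TSPAN8 was near the floor. Of 16 mesenchymal and fibroblast markers, 9 were below 0.2 FPKM in all 6, including COL1A2, COL3A1, DCN, LUM and PDGFRA. Their summed level, as deposited, was 23.6 to 28.0 FPKM at 24 h, against 15.9 to 21.5 FPKM at 6 h, with no overlap, and 21.2 to 22.1 FPKM in DMSO. SNAI2 (log2 difference 0.59, adjusted p = 0.494) and CDH2 (0.26, adjusted p = 0.503) were higher in the mean without passing the test, and the part of this list in the results was not tested. Of 12 leukocyte markers 6, of 6 endothelial markers 3, and of 10 acinar and islet markers 8 were below 0.2 FPKM throughout. In the leukocyte list CD68 went the other way, at 9.84 to 17.3 FPKM in the 6 libraries, and HBB ranged from 0.0960 to 4.54 FPKM. The leukocyte sum, as deposited, was 14.2 to 18.3 FPKM at 24 h and 11.1 to 22.1 FPKM at 6 h. The endothelial sum, as deposited, did not overlap between the times and was lower at 24 h (0.878 to 1.08 FPKM, against 1.15 to 1.36 at 6 h). No endothelial marker exceeded 0.531 FPKM (VWF), so this sum lies close to the floor, the most frequent value of a library. That floor was itself 0.0963 to 0.110 FPKM at 24 h and 0.108 to 0.118 at 6 h, and the difference in the sum was not tested.

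DCLK1, the inhibitor's target, did not pass the test. Its transcript read 17.5, 20.1 and 19.3 levelled FPKM at 24 h, against 19.0, 19.8 and 18.8 at 6 h, and the ranges overlapped. Its log2 difference was -0.02 ± 0.06 (SE; limma, Benjamini-Hochberg adjusted p = 0.939). The kinases MAPK7 (log2 difference -0.04) and TNK2 (-0.05) also did not pass. DCLK2 and DCLK3 averaged below 1 FPKM and were not tested.

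Genes of cholesterol synthesis formed the largest group among those higher at 24 h than at 6 h. With limma at an adjusted p below 0.05, 24 of 11477 genes were higher at 24 h and 4 were lower, which is 0.244% of genes tested (0.209% higher and 0.0349% lower). At an unadjusted p below 0.05 there were 981 genes, 467 higher and 514 lower. Of the 24 genes that rose, 12 were in the lists of mevalonate and sterol ring enzymes, out of 24 such genes tested. The ring enzyme list counts C14orf1, which encodes a scaffold of these enzymes, with them. The other genes that rose included 3 of fatty acid synthesis and desaturation (ELOVL6, SCD and ACSS2), the SREBP-2 gene SREBF2, the acyl-CoA synthetase gene ACSL4, the cytosolic isocitrate dehydrogenase gene IDH1 and the aldolase gene ALDOC. All 28 had 3 centred values at 24 h on one side of the 3 at 6 h, which was so of 7.31% of all genes in the higher direction and 7.02% in the lower. These calls rest on the shift to a common median. On values as deposited limma passed 0 genes (0% of genes tested), with 197 at an unadjusted p below 0.05, and the 28 had an adjusted p of 1.00. As deposited, 20 of the 28 had non-overlapping libraries, against 3.98% of all genes in either direction. The 28 were picked from these same libraries, so their separation, centred or as deposited, is not separate support for the calls. The median log2 difference over all tested genes was -0.02 centred and 0.09 as deposited.

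**Figure D1:**
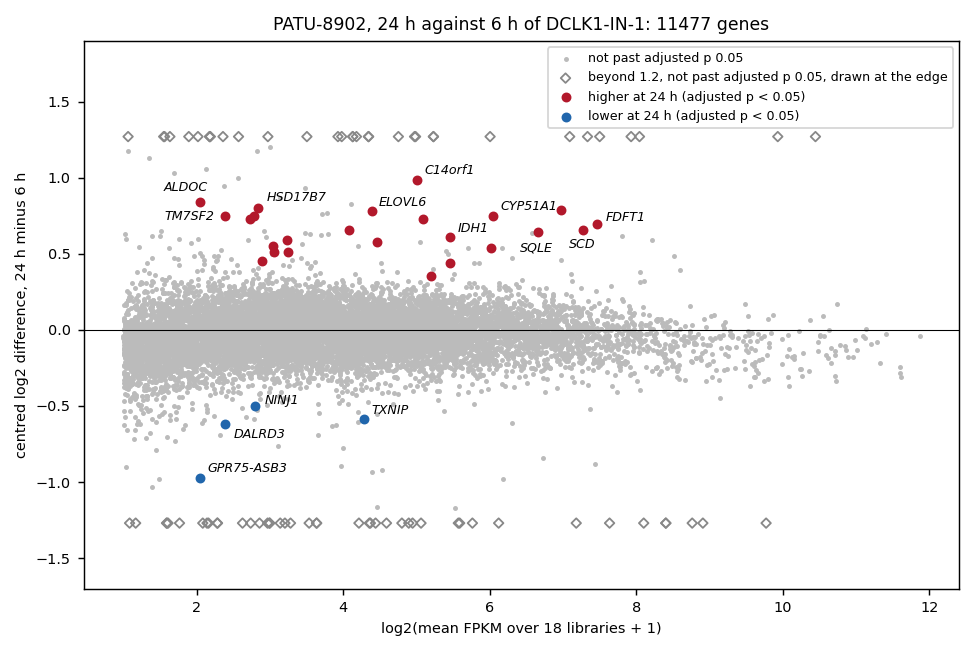
Centred log2 difference (24 h minus 6 h) of 11477 genes against log2 of the mean FPKM plus 1 over 18 libraries. The 24 red points are genes that rose, the 4 blue points genes that fell, and 77 genes beyond 1.2 in size, none past the threshold, are drawn as diamonds at the edge.

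Promoters of 5 of the genes are shown because they differ in the motifs that SREBP, NF-Y and Sp1 are known to read. They run 5′ to 3′ on the gene's strand, from 250 bases before to 50 after the start, and are RefSeq sequences of build GRCh38.p14 (the expression table used hg19, and no coordinate was taken from it). Capitals mark CCAAT or TCACNCCAC, on either strand (TCACNCCAC is a form of the sterol regulatory element), so that ATTGG is CCAAT read on the other strand. C14orf1, now named ERG28, is at chr14:75660827-75661126 (minus strand). ELOVL6 is at chr4:110198566-110198865 (minus strand), SREBF2 at chr22:41832855-41833154 (plus strand), HMGCS1 at chr5:43313363-43313662 (minus strand) and TXNIP at chr1:145996530-145996829 (minus strand).
C14orf1: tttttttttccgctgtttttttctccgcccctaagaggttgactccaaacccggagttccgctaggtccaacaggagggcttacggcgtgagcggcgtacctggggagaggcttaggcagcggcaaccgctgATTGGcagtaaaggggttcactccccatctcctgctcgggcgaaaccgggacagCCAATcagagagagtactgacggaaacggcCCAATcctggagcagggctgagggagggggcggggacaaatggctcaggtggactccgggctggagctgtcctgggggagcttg
ELOVL6: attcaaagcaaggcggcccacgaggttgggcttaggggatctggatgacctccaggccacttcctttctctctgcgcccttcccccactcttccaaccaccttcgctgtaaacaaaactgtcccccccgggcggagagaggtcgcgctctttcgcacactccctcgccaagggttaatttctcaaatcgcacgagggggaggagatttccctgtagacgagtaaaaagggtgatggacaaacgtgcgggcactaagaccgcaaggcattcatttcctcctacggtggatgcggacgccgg
SREBF2: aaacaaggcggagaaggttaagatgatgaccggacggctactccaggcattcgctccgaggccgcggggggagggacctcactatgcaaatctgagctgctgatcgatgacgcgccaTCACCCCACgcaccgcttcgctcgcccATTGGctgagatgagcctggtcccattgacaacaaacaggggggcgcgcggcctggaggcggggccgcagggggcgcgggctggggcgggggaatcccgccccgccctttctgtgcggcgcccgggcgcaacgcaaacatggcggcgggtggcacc
HMGCS1: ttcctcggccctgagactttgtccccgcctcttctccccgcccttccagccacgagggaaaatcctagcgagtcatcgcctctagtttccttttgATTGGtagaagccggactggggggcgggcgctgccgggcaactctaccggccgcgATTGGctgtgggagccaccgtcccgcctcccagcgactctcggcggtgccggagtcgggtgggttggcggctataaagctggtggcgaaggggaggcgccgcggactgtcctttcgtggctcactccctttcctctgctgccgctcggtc
TXNIP: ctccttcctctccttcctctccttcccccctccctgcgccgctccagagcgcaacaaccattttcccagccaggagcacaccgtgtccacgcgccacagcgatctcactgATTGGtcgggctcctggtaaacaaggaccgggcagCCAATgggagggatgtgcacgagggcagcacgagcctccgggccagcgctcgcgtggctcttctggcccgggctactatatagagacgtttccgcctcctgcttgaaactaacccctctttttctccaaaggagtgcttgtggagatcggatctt
The window of C14orf1 holds 3 CCAAT matches, that of HMGCS1 2, and that of SREBF2 1 CCAAT beside 1 TCACNCCAC, while ELOVL6 has neither motif in these letters. TXNIP, which fell, holds 2 CCAAT matches. Of the 24 genes that rose, 21 had a promoter in the RefSeq table, and 14 of these (66.7%) hold CCAAT on either strand, against 35.7% of 27305 promoters of the same length. GGGCGG was in 19 (90.5%), against 44.6% of all. TCACNCCAC was in 3 (14.3%; TDRKH, ALDOC and SREBF2), against 1.15% of all. The E-box CACGTG was in 2 (9.52%), against 7.43%. Of the 4 genes that fell, all with a promoter, 2 hold CCAAT and 3 hold GGGCGG. The 27305 promoters are not limited to the 11477 genes tested, and the share among tested genes was not computed. Whether these motifs are more frequent in the genes that rose than in other tested genes was therefore not tested. Of the 19 sterol enzyme genes with a promoter, 13 (68.4%) hold CCAAT and 0 hold TCACNCCAC. MVK and MMAB, neighbours on opposite strands, share 211 of the 300 bases of their promoters and both rose, so these promoters are not independent.

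The mevalonate enzymes had a median log2 difference of 0.49 over 10 tested genes, against -0.02 over all genes. Of the 10, 4 rose, 0 fell and 6 did not pass. ACAT2, the cytosolic thiolase that joins acetyl-CoA units, read 155, 158 and 169 levelled FPKM at 24 h and 84.9, 104 and 89.5 at 6 h, with 91.9, 76.3 and 78.4 in DMSO. It was higher in all libraries at 24 h, while the 6 h and DMSO ranges overlapped. The log2 difference between 24 h and 6 h was 0.79 ± 0.10 (adjusted p = 0.00144). HMGCS1, the synthase of HMG-CoA, read 76.0, 77.7 and 77.4 at 24 h, 57.4, 56.9 and 55.2 at 6 h and 23.4, 22.9 and 23.2 in DMSO. The 3 groups did not overlap: 24 h exceeded 6 h by 0.44 ± 0.07 on the log2 scale (adjusted p = 0.00647), and 6 h exceeded DMSO by 1.25 ± 0.07. IDI1, the isomerase of isopentenyl diphosphate (log2 difference 0.54 ± 0.09, adjusted p = 0.0121), and MVK, mevalonate kinase (0.55 ± 0.11, adjusted p = 0.04), rose. MVD (0.63 ± 0.16, adjusted p = 0.242) and FDPS (0.54 ± 0.14, adjusted p = 0.25) did not pass, and PMVK (-0.23), IDI2 (-0.13) and GGPS1 (-0.05) had negative values. Leaving out 1 library at a time, ACAT2 passed in 6 of 6 fits, HMGCS1 in 5 (adjusted p = 0.0554 without 6 h replicate 3), IDI1 in 2 and MVK in 1.

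The sterol branch had the higher median, 0.67 over 14 tested genes, of which 8 rose, 0 fell and 6 did not pass. C14orf1, the scaffold of the enzyme complex that removes methyl groups from the sterol ring, read 48.4, 47.2 and 43.8 levelled FPKM at 24 h, against 22.1, 22.6 and 24.2 at 6 h and 22.1, 22.4 and 20.3 in DMSO. As a ratio of FPKM + 1, it was 1.98-fold higher at 24 h than at 6 h (log2 0.99 ± 0.07, adjusted p = 5.26e-06). Its 6 h and DMSO ranges overlapped. Its promoter, printed above, is the one with 3 CCAAT matches. SQLE, squalene epoxidase, read 150.4, 159.8 and 158 at 24 h, 96.9, 103 and 98.2 at 6 h and 54.0, 56.6 and 52.5 in DMSO. The 3 groups were separate, with log2 differences of 0.64 ± 0.05 between 24 h and 6 h (adjusted p = 6.67e-06) and 0.86 between 6 h and DMSO. CYP51A1, the demethylase of lanosterol, read 79.0, 83.6 and 84.6 at 24 h, against 49.7, 47.5 and 48.6 at 6 h and 31.8, 35.2 and 32.1 in DMSO. Its 3 groups were also separate, and 24 h exceeded 6 h by 0.75 ± 0.07 on the log2 scale (adjusted p = 4.19e-05). HSD17B7, a reductase of the same demethylation complex whose value may include reads of a near-identical pseudogene, read 12.5, 12.3 and 9.48 at 24 h and 6.27, 5.93 and 6.04 at 6 h, with 3.19, 2.78 and 2.54 in DMSO. The groups did not overlap, and 24 h replicate 3 was the lowest of its group (log2 difference 0.80 ± 0.12, adjusted p = 0.0039).

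The remaining ring enzymes that rose were FDFT1, squalene synthase, LSS, which closes the ring, TM7SF2, a sterol reductase, and DHCR7, which makes cholesterol in the last step of 1 route. FDFT1 read 296, 309.6 and 323 levelled FPKM at 24 h and 174, 222 and 180.2 at 6 h (log2 difference 0.69 ± 0.11, adjusted p = 0.00647). LSS read 7.93, 6.87 and 7.06 at 24 h and 4.08, 4.01 and 3.73 at 6 h (0.75 ± 0.11, adjusted p = 0.00362). DHCR7 read 40.7, 40.2 and 41.1 at 24 h and 23.8, 27.6 and 21.6 at 6 h (0.73 ± 0.13, adjusted p = 0.0285). In each of these genes all 3 libraries at 24 h exceeded all 3 at 6 h, and the 6 h group was the more spread in FDFT1 and DHCR7. TM7SF2 was low, at 2.25 to 3.41 levelled FPKM at 24 h and 0.944 to 1.64 at 6 h (0.75 ± 0.13, adjusted p = 0.0155). Among members that did not pass, SC5D (0.63, adjusted p = 0.105), MSMO1 (0.50), EBP (0.44) and NSDHL (0.26) had positive log2 differences. LBR, which shares the reductase step with TM7SF2, stood at 0.00. With 1 library left out at a time, C14orf1, SQLE, CYP51A1, HSD17B7 and LSS passed in 6 of 6 fits, FDFT1 in 3, TM7SF2 in 2 and DHCR7 in 1. Over mevalonate and ring enzymes together, 20 of 24 had a log2 difference above 0, with a median of 0.55, against -0.02 over all genes.

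**Figure D2:**
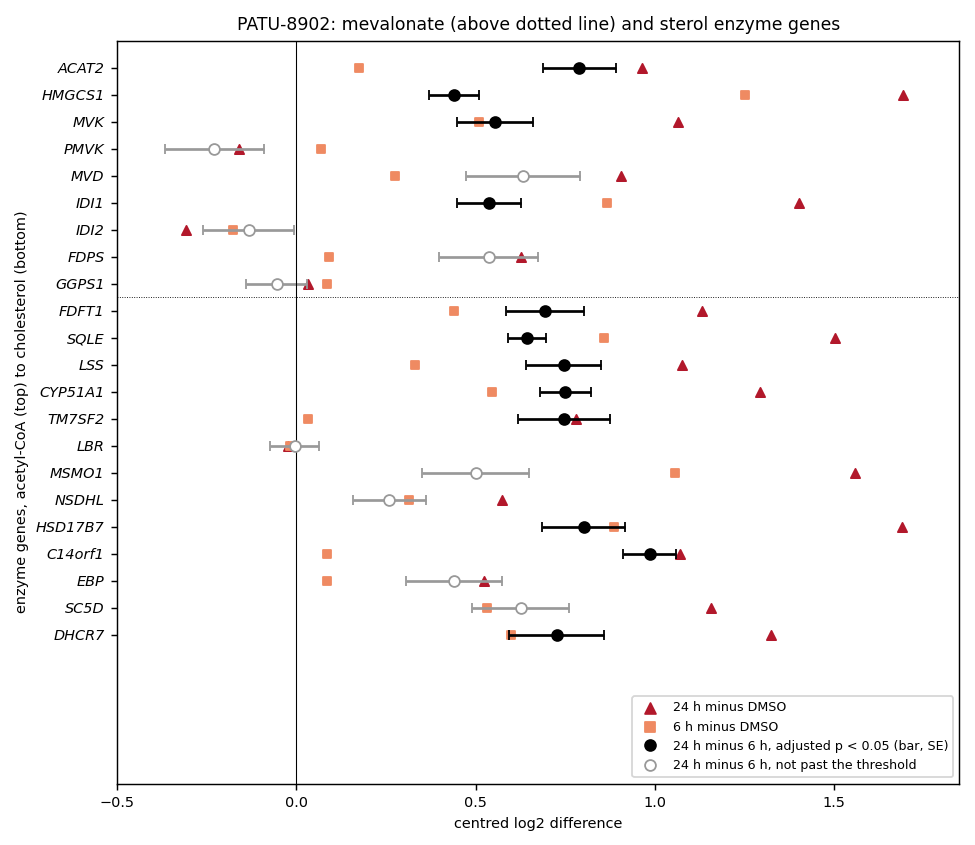
Centred log2 differences of 22 enzyme genes in pathway order, with circles for 24 h minus 6 h (bar, SE), triangles for 24 h minus DMSO and squares for 6 h minus DMSO. Filled circles mark the 12 genes that rose between 6 h and 24 h, and the square of HMGCS1 (1.25) lies right of its circle (0.44) while those of C14orf1 and ACAT2 lie left of theirs.

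The comparisons of 24 h with 6 h, 24 h with DMSO and 6 h with DMSO share libraries, so their values stand side by side without a test of their likeness. For the mevalonate enzymes the median log2 difference was 0.93 at 24 h against DMSO and 0.22 at 6 h against DMSO. For the ring enzymes it was 1.10 at 24 h and 0.38 at 6 h. The single genes spread widely around these medians, with 6 h values of 0.08 for C14orf1 and 0.09 for IDH1 at one end and 1.06 for MSMO1 and 1.25 for HMGCS1 at the other.

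**Figure D3:**
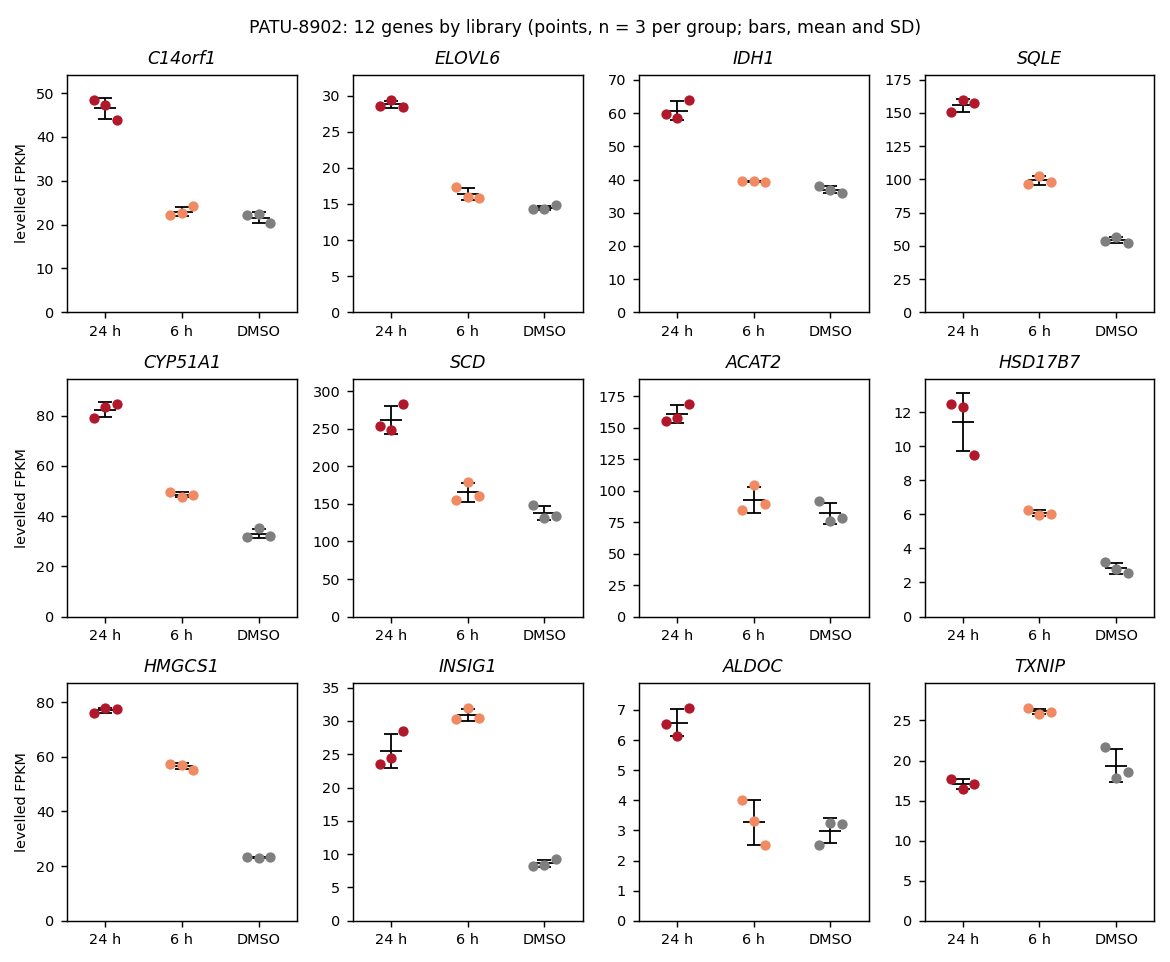
Levelled FPKM of 12 genes in PATU-8902, with 1 point per library, a horizontal bar at the mean and whiskers of 1 SD (n = 3 per group). C14orf1 reads 43.8 to 48.4 at 24 h and overlaps DMSO at 6 h, INSIG1 reads highest at 6 h, and TXNIP reads 16.5 to 17.8 at 24 h, below 6 h.

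Among 13 genes that control SREBP activity, 1 rose and 0 fell, and the median was 0.01. SREBF2 read 24.7, 23.1 and 25.8 levelled FPKM at 24 h, against 14.6, 17.5 and 16.2 at 6 h and 15.3, 11.6 and 13.4 in DMSO. It was above 6 h in all libraries (log2 difference 0.58 ± 0.11, adjusted p = 0.0277), and 6 h overlapped DMSO. This call held in 1 of 6 fits that left out 1 library. SREBF1 did not pass (0.06 ± 0.09, adjusted p = 0.834), and neither did SCAP, the escort protein of SREBP (-0.10). INSIG1, which encodes a retention protein and is itself a known SREBP target, read 23.6, 24.4 and 28.4 at 24 h and 30.2, 31.9 and 30.5 at 6 h, with 8.25, 8.44 and 9.22 in DMSO. Its 24 h libraries lay below its 6 h libraries and above DMSO, with a log2 difference of -0.27 ± 0.09 between 24 h and 6 h that did not pass (adjusted p = 0.531). Its differences from DMSO were 1.46 at 24 h and 1.73 at 6 h.

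No gene of cholesterol uptake, transport and storage passed, with 15 tested and a median of 0.05. The sterol carrier gene STARD4 (0.43, adjusted p = 0.542) and the lipoprotein receptor gene LRP8 (0.48, adjusted p = 0.25) did not pass. Of 5 LXR receptors and targets tested, 0 passed. MYLIP, which encodes a ubiquitin ligase and is an LXR target, read 4.67, 3.32 and 4.06 at 24 h and 2.57, 2.44 and 3.38 at 6 h, with 5.47, 5.42 and 5.51 in DMSO. Its times overlapped at their edges (0.40 ± 0.13, adjusted p = 0.484), and both lay below DMSO.

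Of 20 tested genes of fatty acid synthesis and desaturation, 3 rose and 0 fell, with a median of 0.13. ELOVL6, which lengthens palmitate to stearate, read 28.5, 29.4 and 28.4 levelled FPKM at 24 h and 17.4, 15.9 and 15.8 at 6 h, with 14.3, 14.3 and 14.8 in DMSO. It was 1.72-fold higher at 24 h (log2 0.78 ± 0.06, adjusted p = 5.26e-06), with no overlap between any of the 3 groups. SCD, the desaturase that acts on stearate, read 253, 248 and 283 at 24 h, 155, 179 and 161 at 6 h, and 148, 131 and 134 in DMSO (0.66 ± 0.08, adjusted p = 5.72e-04). ACSS2, which makes acetyl-CoA from acetate, read 11.8, 10.4 and 10.3 at 24 h and 6.71, 7.13 and 6.65 at 6 h (0.59 ± 0.08, adjusted p = 0.00351). FASN (0.33, adjusted p = 0.554), ACLY (0.14), ACACA (0.22), FADS1 (-0.12) and FADS2 (-0.09), the other main enzymes of the route, did not pass. HSD17B12, a reductase of fatty acid elongation, came nearest without passing (0.33 ± 0.07, adjusted p = 0.0659). Of 22 acyl-CoA synthetase, lipin and glycerolipid genes, ACSL4, which activates long polyunsaturated fatty acids, rose alone. It read 17.9, 19.4 and 18.4 levelled FPKM at 24 h and 11.3, 11.4 and 11.6 at 6 h (0.66 ± 0.10, adjusted p = 0.00552), and LPIN1, a phosphatidate phosphatase, stood at -0.01.

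Of 9 genes of NADPH supply, IDH1 rose and the others did not pass. It read 59.7, 58.6 and 64.0 levelled FPKM at 24 h and 39.6, 39.4 and 39.3 at 6 h, with 38.0, 37.0 and 35.9 in DMSO. The 6 h libraries lay within 1 FPKM of each other, and 24 h was 1.53-fold higher (log2 0.61 ± 0.05, adjusted p = 6.67e-06). ME1, the cytosolic malic enzyme, had a log2 difference of 0.32 (adjusted p = 0.271). In glycolysis, ALDOC rose among 24 tested genes, whose median was -0.06. ALDOC read 6.54, 6.15 and 7.05 at 24 h, against 4.0, 3.30 and 2.52 at 6 h and 2.51, 3.23 and 3.23 in DMSO (0.84 ± 0.13, adjusted p = 0.00643). Without 24 h replicate 3 its adjusted p was 0.0538, and without 6 h replicate 3 it was 0.0516. Of 15 hypoxia response genes, 0 passed (median 0.06).

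The 5 genes that rose outside every list were OLMALINC, TDRKH, RDH11, PAX8-AS1 and MMAB. OLMALINC, a long non-coding RNA gene that neighbours SCD on the same strand, read 7.02, 9.52 and 9.41 levelled FPKM at 24 h and 5.12, 4.43 and 4.78 at 6 h (log2 difference 0.73 ± 0.11, adjusted p = 0.0039). RDH11, a retinol dehydrogenase, had the smallest difference of the 24 with tight libraries, at 39.7, 40.4 and 40.4 at 24 h and 30.4, 32.5 and 30.9 at 6 h (0.35 ± 0.05, adjusted p = 0.00435). MMAB, an enzyme of cobalamin metabolism, rose by 0.45 ± 0.09 (adjusted p = 0.04). TDRKH, a tudor domain gene, rose by 0.51 ± 0.07 (adjusted p = 0.00425) and PAX8-AS1 by 0.51 ± 0.08 (adjusted p = 0.00552). No source used here says if reads were assigned by strand, so PAX8-AS1 cannot be told apart from PAX8. MMAB passed in 0 of 6 fits that each left out 1 library.

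Of the 4 genes that fell, TXNIP had the smallest adjusted p, and GPR75-ASB3, NINJ1 and DALRD3 were the others. TXNIP, which encodes a thioredoxin-binding arrestin that limits glucose uptake and is a target of MondoA, read 17.8, 16.5 and 17.0 levelled FPKM at 24 h, against 26.5, 25.8 and 26.1 at 6 h and 21.7, 17.9 and 18.5 in DMSO. Both other groups were lower than 6 h, and the DMSO libraries lay above those at 24 h. The log2 difference was -0.59 ± 0.07 between 24 h and 6 h (adjusted p = 3.26e-04), -0.17 between 24 h and DMSO and 0.42 between 6 h and DMSO. The other 7 tested genes of the MondoA and ChREBP axis did not pass, with ARRDC4 at -0.13 and the list's median at -0.09. GPR75-ASB3, a read-through gene whose reads cannot be told apart from those of its overlapping neighbour ASB3, read 0.878, 1.18 and 1.07 at 24 h and 2.40, 3.80 and 2.91 at 6 h (-0.97 ± 0.16, adjusted p = 0.0134). NINJ1, which encodes a protein of plasma membrane rupture, read 3.44, 3.48 and 3.51 at 24 h and 5.83, 5.29 and 4.91 at 6 h (-0.50 ± 0.10, adjusted p = 0.0469). DALRD3 was low, at 0.618 to 0.884 at 24 h and 1.44 to 1.93 at 6 h (-0.62 ± 0.12, adjusted p = 0.048). Leaving out 1 library at a time, TXNIP passed in 6 of 6 fits, GPR75-ASB3 in 2, NINJ1 in 0 and DALRD3 in 0. Nearest to the threshold in the lower direction without passing were RHEBL1 (-0.71, adjusted p = 0.0786), MYL5 (-0.98, adjusted p = 0.144), TAF6L (-0.54, adjusted p = 0.144) and TRAPPC2 (-0.34, adjusted p = 0.144).

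No tested member of the lists not yet described passed in either direction. They include 15 immediate early and AP-1 genes (median 0.02), 15 ERK feedback genes (-0.02), 19 genes of the ATF4 stress response (-0.15), 20 of the unfolded protein response (-0.01), 18 p53 targets (-0.03), 27 genes of G1/S and replication (-0.07) and 30 of G2/M (-0.08). The large housekeeping lists sat below the median of all genes tested, which was -0.02 centred and 0.09 as deposited. The share of all genes below 0 was not computed, and members of a list come from the same libraries, so they are not independent. Of 37 cytosolic ribosomal protein genes, 34 had a centred log2 difference below 0 (median -0.17; -0.06 as deposited). Of 45 oxidative phosphorylation subunits, 39 did (median -0.14; -0.04 as deposited). None of these genes passed. At an unadjusted p below 0.05, 7 oxidative phosphorylation subunits were lower, 1 was higher, and 0 ribosomal protein genes were counted, against 8.55% of all genes tested in either direction. The interferon-stimulated genes (23 tested, median -0.09) and TGF-beta targets (15 tested, median 0.11) were also without a call.

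**Figure D4:**
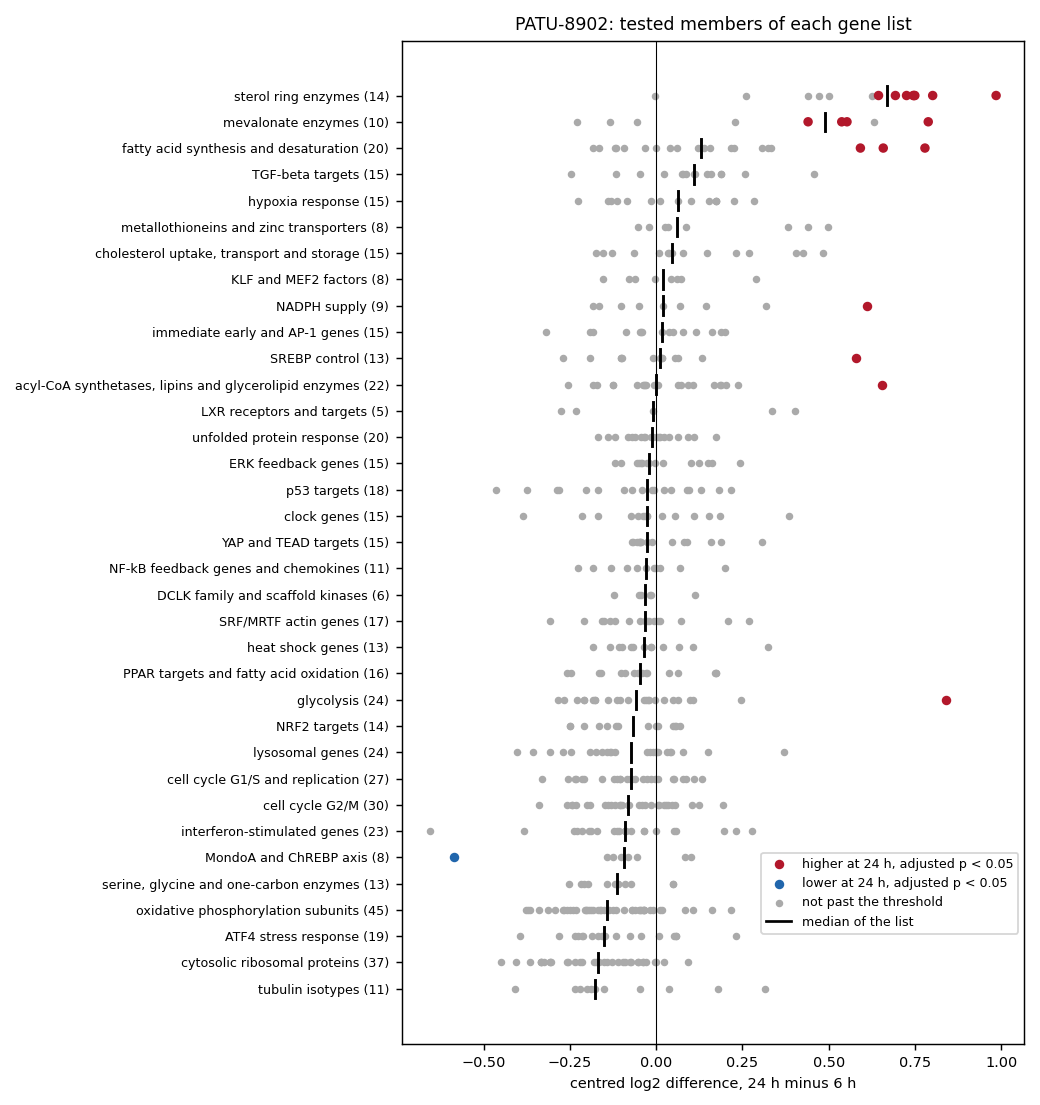
Centred log2 difference (24 h minus 6 h) of each tested member of each pathway list with 5 or more tested members (marker lists are not drawn), with the list's median as a black bar. The ring enzymes (median 0.67) and mevalonate enzymes (median 0.49) lie to the right, and the medians of the other lists drawn lie between -0.18 and 0.13.

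Large differences without a call were mostly small RNAs. Beyond 1 on the log2 scale lay 87 genes, none of which passed, and 79 of them were small RNAs, out of 193 small RNAs tested. Small RNAs were left out of the ranking of named genes.

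The 24 h against 6 h difference was compared between the lines as a difference of differences in the same limma fit. In PATU-8988T 0 genes passed at 24 h against 6 h (0% of genes tested), with 544 at an unadjusted p below 0.05. The difference between the lines passed for 10 genes, all higher in PATU-8902 (0.0871% of genes tested), and 1117 genes had an unadjusted p below 0.05. Of the 10, 9 were among the genes that rose in PATU-8902. The test of the lines contains the PATU-8902 contrast that picked those genes, so this overlap is partly built in. SQLE had a log2 difference of 0.64 in PATU-8902 and -0.20 in PATU-8988T (difference 0.85, adjusted p = 7.20e-05). HMGCS1 stood at 0.44 in PATU-8902 and -0.40 in PATU-8988T (difference 0.84, adjusted p = 5.37e-04). C14orf1 stood at 0.99 in PATU-8902 and -0.02 in PATU-8988T (difference 1.01, adjusted p = 2.34e-04). The PATU-8988T value lay below 0 by more than its SE in SQLE and HMGCS1, and within its SE of 0 in C14orf1 (SE 0.07). The test of the difference also passed for ELOVL6, IDH1, CYP51A1, RDH11, IDI1 and HSD17B7. For TXNIP, at -0.59 in PATU-8902 and -0.27 in PATU-8988T, the difference of -0.32 did not pass (adjusted p = 0.416). GPR75-ASB3 (difference -1.28, adjusted p = 0.0556) and NINJ1 (-0.70, adjusted p = 0.0964) came nearest in the lower direction without passing.

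**Figure D5:**
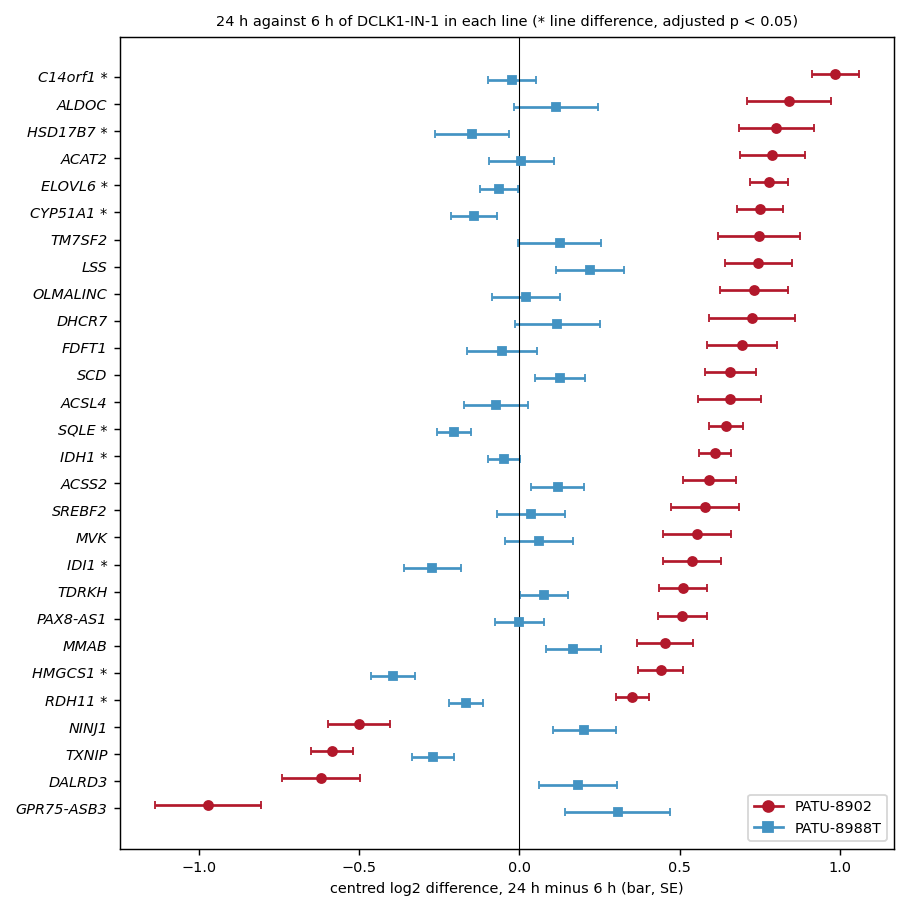
Centred log2 difference (24 h minus 6 h) with its SE for the 28 genes that passed in PATU-8902, with circles for PATU-8902 and squares for PATU-8988T. Stars mark the 9 of them whose difference between the lines passed, such as C14orf1 at 0.99 in PATU-8902 and -0.02 in PATU-8988T.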

How the data were processed

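Polyadenylated RNA of the 6 PATU-8902 inhibitor libraries was analysed with the other 12 libraries of the series in 1 fit. Per the labels' protocols, ERCC controls were spiked in after normalisation to cell number, and sequencing was single-end. The submitters' processing notes name HISAT, Cufflinks, Cuffnorm and build hg19. No version is given in the sources used here. The authors deposited 1 table of FPKM values, with 26249 genes and 92 spike-ins, already scaled between libraries.

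The 11477 genes averaging 1 FPKM or more over 18 libraries were kept, values were taken as log2(FPKM + 1), and each library was shifted to the same median. On this scale the change of low genes is understated, and all folds given are ratios of FPKM + 1 after the shift. limma (version 3.58.1, R 4.3.3) was fitted with a mean-variance trend to 6 group means, with 12 residual degrees of freedom, 2-sided p-values and Benjamini-Hochberg adjustment over all genes tested, and the threshold was an adjusted p of 0.05. The method was run on simulated data with independent noise per gene and an additive shift per library. Centring removes such a shift, so that run does not test how the method behaves where the real libraries depart from this setting. Errors are standard errors for log2 differences, with n = 3 per group.

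Lists with their members, and the comparison itself, were chosen with earlier results of these data known. Named are the genes past the threshold with non-overlapping libraries, up to 25 each way, the nearest misses where fewer than 10 passed, up to 5 each way for the line difference, the DCLK family and list members. The ranking left out small RNAs. A few members of the lists are not reported here but stay in the counts. Of 41 lists, the mitochondrially encoded mRNAs had no row in the table. Promoter motifs were searched on both strands in RefSeq promoters (GRCh38.p14). Alternatives were other scalings, pseudocounts and filters, fewer libraries, array weights, a replicate block and leaving out libraries.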

Additional observations from a re-analysis of the deposited data

Results flagged for a closer look

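A difference between the lines in the change from 6 h to 24 h, tested within the limma fit, marked 9 of the genes that rose for a closer look, each higher in PATU-8902 than in PATU-8988T. That test contains the PATU-8902 contrast by which these genes were called, so it is not separate support for their rise. On the log2 scale the difference was 1.01 for C14orf1, 0.95 for HSD17B7, 0.89 for CYP51A1, 0.85 for SQLE, 0.84 for ELOVL6, 0.84 for HMGCS1 and 0.81 for IDI1. It was 0.66 for IDH1 and 0.52 for RDH11. On values as deposited, limma passed 0 genes for this difference. Groups of 3 libraries are too small for the check of single outlying samples.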

How the results depend on the processing

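No setting turned the direction of any of the 28 genes that passed. Their number was 28 in the reported fit, 0 on values as deposited and 0 with levelling on the spike-ins, where library levels stay in the spread. The deposited values were already nearly level on the spike-ins, with mean log2 deviations of -0.0458 to 0.00177 in the 6 libraries. These settings are therefore not separate checks, and the shift to a common median replaces the spike-in level. The number that passed was 17 with only the 6 compared libraries, 17 with the replicate number as a block, 104 with array weights (72 higher, 32 lower, where the weights did not fully converge) and 17 to 23 when 1 library was left out, lowest without 6 h replicate 3. Without 6 h replicate 2 and 24 h replicate 3 together, a choice made after seeing the data, it was 17. Leaving out each of the 6 libraries in turn, 16 of the 28 passed every time, and MMAB, NINJ1 and DALRD3 passed in 0 of 6. For the difference between the lines, 10 genes passed in the reported fit, 0 on values as deposited, 0 with spike-in levelling and 6 with the block. It was 979 with array weights, of which 463 were higher and 516 lower in PATU-8902, so there the genes were not all higher. When 1 library was left out, 7 to 11 passed, and some of these fits held a lower gene (7 higher and 1 lower without 6 h replicate 1). To look for pairing by replicate number, each gene's group mean was subtracted from its centred values. What was left correlated between same-numbered 24 h and 6 h libraries at 0.0897, -0.0901 and 0.0108 across genes. By this measure 2 of 6 libraries (24 h replicate 1 and 6 h replicate 3) correlated best with their own number. The difference in log2 library median was 0.107, -0.0415 with no filter, and -0.0401 (without 24 h replicate 3) to 0.282 (without 6 h replicate 2) when 1 library was left out, including -0.0181 without 6 h replicate 1. The cause was not tested. With no counts the depth is unknown, and genes near the floor of 0.0963 to 0.118 FPKM allow no fold change.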
